A study of Mus musculus with 12 samples.

Results

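The miR-199 and miR-214 family was followed as 6 names of the deposited count table, mmu-miR-199a-5p, mmu-miR-199a-3p, mmu-miR-199b-5p, mmu-miR-199b-3p, mmu-miR-214-5p and mmu-miR-214-3p, taken from 1915 mouse microRNA names. miR-199a-3p and miR-199b-3p have the same mature sequence and the same counts in every library, so they were counted once, which left 5 distinct arms. The counts are of small RNA in extracellular vesicles, the membrane-bound particles that cells release, precipitated with a polymer reagent from plasma of male C57BL/6J mice. The BDL group (6 libraries) was taken 8 days after bile duct ligation, an operation that ties off the bile duct and leads to cholestatic liver injury and fibrosis. The sham group (6 libraries) was taken 8 days after a control operation. No transgene, drug or age is given in the labels. A tissue label reads liver, but the site label and the extraction protocol name vesicles from plasma, so the RNA can come from any organ or blood cell. A change in the number of vesicles of a source and a change in RNA per vesicle cannot be told apart.

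A microRNA hairpin is cut into a duplex with a 5p and a 3p arm. One arm is usually loaded into an Argonaute protein and pairs with target mRNAs through its seed, bases 2 to 8, while the other is mostly degraded. miR-199a and miR-214 are known from mesenchymal cells, including hepatic stellate cells, the liver pericytes that turn into collagen-forming myofibroblasts after injury. Mir199a-2 and Mir214 are processed from the same long non-coding transcript, Dnm3os, which the transcription factor Twist1 drives. In mouse stellate cells miR-214 is known to target Ccn2, a connective tissue growth factor, and to be carried in vesicles. miR-199a-5p is known to target caveolin 1 in fibroblasts.

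The mature sequences are shown because the results set the arms against each other and each arm finds its targets through its own seed. They are from RefSeq (GRCm38.p6), written 5′ to 3′ with the seed in capitals, and 5 of the 6 names had an entry in the table used.
miR-214-3p: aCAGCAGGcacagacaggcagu
miR-199a-3p: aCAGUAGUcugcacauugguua
miR-199b-3p: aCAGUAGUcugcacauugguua
miR-199a-5p: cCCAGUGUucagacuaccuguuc
miR-214-5p: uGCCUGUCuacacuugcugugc
miR-199a-3p and miR-199b-3p share a seed. Apart from the 6 names followed, no name among the 1679 mature mouse names in that table shares a seed with miR-199a-3p, miR-199a-5p or miR-214-5p. miR-199b-5p had no entry, so its seed was not compared. miR-761 shares the seed of miR-214-3p and had 4 counts over the BDL libraries and 2 over the sham libraries.

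Mir199a-2 lies at chr1:162217814-162217923 and Mir214 at chr1:162223368-162223477 on GRCm38, both on the plus strand, in exons of Dnm3os and opposite an intron of Dnm3 in the GENCODE annotation. The labels and processing notes do not name the authors' build. The hairpins are 5444 bases apart. They are printed below with both mature arms in capitals, since arms of these hairpins are compared throughout.
Mir214: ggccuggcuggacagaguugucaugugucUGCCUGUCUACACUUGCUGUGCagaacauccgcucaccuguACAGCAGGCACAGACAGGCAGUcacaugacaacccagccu
Mir199a-2: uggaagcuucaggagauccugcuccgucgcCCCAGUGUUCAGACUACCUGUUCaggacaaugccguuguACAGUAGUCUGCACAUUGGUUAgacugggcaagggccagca
Mature miR-199a-5p and miR-199a-3p can equally come from Mir199a-1, at chr9:21496495-21496564 on the minus strand, opposite an intron of Dnm2. The 3p sequence can also come from Mir199b, at chr2:32318460-32318569 on the plus strand, opposite an intron of Dnm1. The counts therefore do not say which hairpin a read of miR-199a-5p or of the shared 3p arm came from, whereas both miR-214 arms have a single hairpin in the table.

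Library totals ran from 121003 to 3506914 mouse counts in BDL and from 659302 to 2684636 in sham. Names with identical counts, such as miR-486a-5p and miR-486b-5p, each enter these totals. BDL 4 was the shallowest library, and BDL 2 and BDL 6 had 623117 and 666310 counts. Levels are in CPM, the usual depth-scaled unit for counts, on library sizes scaled by edgeR's trimmed mean of M values (TMM). Where nothing was counted, 3 counts are the upper limit taken, equal to 24.01 CPM in BDL 4 and 1.04 CPM in sham 1. The first digit of the sample code is shared by 2 libraries of a group, and the code ends in 24 or 26; the labels explain neither. The design text gives 6 animals per group, the number of libraries in each, but no label ties a library to an animal. If each library is 1 animal the p-values measure the spread between animals, and otherwise part of that spread may be technical.

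The most abundant arm of each microRNA moved in opposite directions after bile duct ligation. miR-214-3p was higher in BDL vesicles, 3.22-fold, while miR-199a-3p fell 2.35-fold below sham. miR-199a-5p and miR-214-5p did not pass the test, and miR-199b-5p was too rare to be tested. Of the 4 distinct arms that passed the filter on low counts, 1 was higher and 1 lower, where 24.6% of the 341 tested names were higher, 18.2% lower and 42.8% either (threshold 0.05 on the Benjamini-Hochberg adjusted p of edgeR's quasi-likelihood test, taken over all tested names). The list was chosen with earlier results of these data known, so its counts are a description.

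miR-214-3p, the arm that acts on Ccn2 in mouse stellate cells, had 101 CPM in the lowest, 132 in the median and 219.6 in the highest BDL library. In sham the lowest, median and highest libraries had 27.9, 45.5 and 54.9 CPM. Every BDL library stood above every sham library, which 11.7% of the tested names also showed. The mean was 141 ± 42.9 CPM in BDL and 43.7 ± 9.42 CPM in sham (SD, n = 6 each). The log2 fold change was 1.69 ± 0.29 (SE, edgeR adjusted p = 3.37e-04). BDL 4 had only 17 counts of it, and the exact Poisson 95% interval of its level, 79.3 to 217.9 CPM, still lay above the highest sham level. Within code ending 24 the log2 fold change was 1.51 ± 0.31 (edgeR adjusted p = 0.00397, n = 3 per group), and within code ending 26 it was 1.83 ± 0.45 (edgeR adjusted p = 0.00521, n = 3 per group).

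miR-214-5p, the partner arm cut from the same hairpin, did not follow. It had 2.55 CPM in the lowest, 6.76 in the median and 22.5 in the highest BDL library. The sham libraries ran from 9.71 through a median of 13.6 to 23.1 CPM. The groups overlapped, with 4 of 6 BDL libraries below all sham libraries and BDL 1 and BDL 3, at 15.2 and 22.5 CPM, among the sham values. The log2 fold change was -0.49 ± 0.48 (edgeR adjusted p = 0.438). BDL 2, 4, 5 and 6 held only 2, 1, 4 and 3 counts of this arm.

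miR-199a-3p, an arm that is also abundant in platelets and is known to target Mtor and Met, was lower in BDL. Its lowest, median and highest levels were 32.0, 70.5 and 120.9 CPM in BDL and 123.6, 176.8 and 216.4 CPM in sham. Every BDL library lay below every sham library with TMM scaling, which 9.38% of the tested names also showed, but BDL 1 at 120.9 CPM and sham 6 at 123.6 CPM were close. Scaled by total counts alone, BDL 1 had 165.4 CPM against a lowest sham value of 110.1 CPM, so that 5 of 6 BDL libraries lay below all sham libraries. The mean was 71.4 ± 29.9 CPM in BDL and 174.1 ± 34.1 CPM in sham (SD, n = 6 each). The log2 fold change was -1.23 ± 0.30 (SE, edgeR adjusted p = 0.00343). It was -1.05 ± 0.29 within code ending 24 and -1.58 ± 0.44 within code ending 26 (edgeR adjusted p = 0.0174 and 0.0109, n = 3 per group each). The difference between code endings (26 minus 24) was -0.44 for miR-199a-3p and 0.43 for miR-214-3p (edgeR interaction term, adjusted p = 0.658 and 0.706).

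miR-199a-5p had 3.68 CPM in the lowest, 11.2 in the median and 37.7 in the highest BDL library. In sham these were 11.5, 33.8 and 40.6 CPM. 5 of the 6 BDL libraries had 17.2 CPM or less, and 5 of the 6 sham libraries had 24.4 CPM or more. BDL 1 and sham 4 were the exceptions, at 37.7 and 11.5 CPM. BDL 2, 4 and 6 held only 6, 1 and 2 counts of this arm. The log2 fold change was -0.89 ± 0.45 (edgeR adjusted p = 0.124). Without BDL 1 it was -1.52 ± 0.43 and past the threshold (edgeR adjusted p = 0.00926), and with BDL 1 kept but the code ending as a term it was -1.08 ± 0.40 (edgeR adjusted p = 0.0379). It did not pass within code ending 24 (-0.74, edgeR adjusted p = 0.214) or with libraries that share a first code digit summed (-0.68, edgeR adjusted p = 0.201). Without BDL 2, 4 and 6 the log2 fold change was -0.47 (edgeR adjusted p = 0.410). The call depended on the libraries and the model used.

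miR-199b-5p had 9 counts over the 6 BDL libraries, 8 of them in BDL 1, and 31 over the 6 sham libraries. BDL 2, 4, 5 and 6 had 0 counts, which allow up to 5.4, 24.01, 1.92 and 5.51 CPM. The sham libraries had 3 to 6 counts each, or 2.04 to 7.63 CPM with a median of 2.56. In 3 of the 4 libraries at 0 the limit was above the sham median, so a lower level there was not detectable at this depth. It did not pass the filter on low counts. Fitted without that filter, its log2 fold change was -2.16 ± 0.87 (edgeR adjusted p = 0.109).

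**Figure D1:**
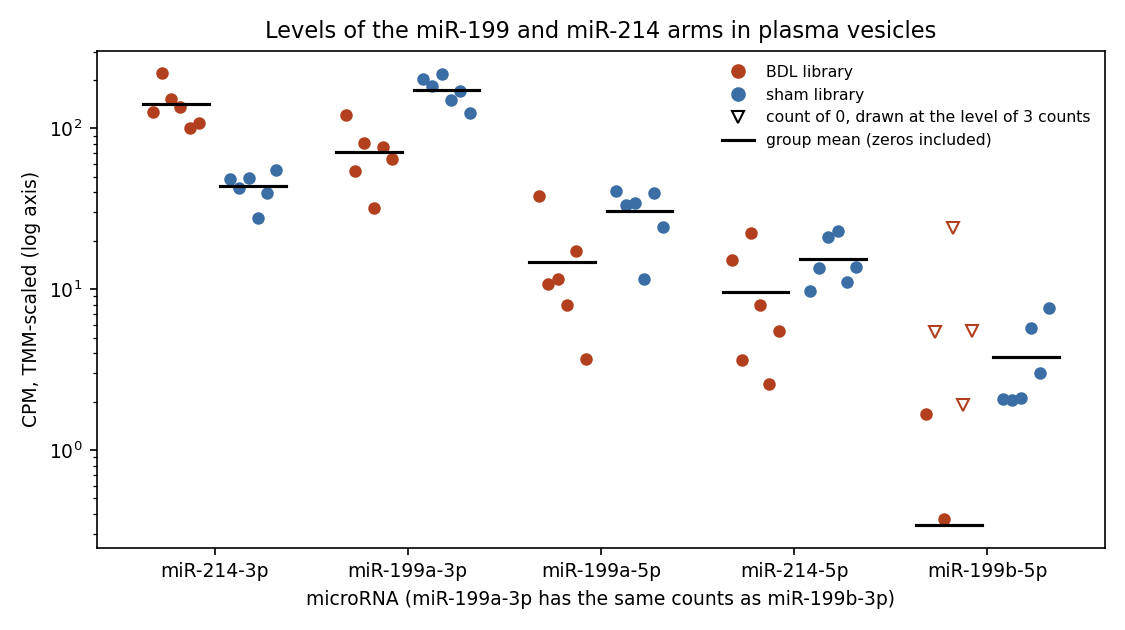
Level of each arm in every library in CPM on a log axis, BDL to the left of sham, with bars at the group means and open triangles at the level of 3 counts where a library had 0. All BDL points of miR-214-3p (101 to 219.6 CPM) stand above all sham points (27.9 to 54.9 CPM), the miR-199a-3p points are the other way round, and the groups overlap for miR-199a-5p and miR-214-5p.

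The order of the arms by level differed between the groups. In BDL miR-214-3p came first, then miR-199a-3p, which overlapped it through BDL 1, then miR-199a-5p, which overlapped miR-199a-3p through its highest library, then miR-214-5p, whose range overlapped that of miR-199a-5p, and last miR-199b-5p. In sham miR-199a-3p came first, clear of miR-214-3p, whose range overlapped that of miR-199a-5p, which in turn overlapped miR-214-5p; miR-199b-5p was below all of them. Mature arms are of like length, 22 or 23 bases, but levels of different names also depend on how well each is ligated to adapters, which was not measured.

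Summed over the 5 distinct arms the family took 0.0149 to 0.0414% of the mouse counts of BDL libraries, with a mean of 0.0252 ± 0.00986%. In sham libraries it took 0.0161 to 0.0335%, with a mean of 0.0265 ± 0.00654% (SD, n = 6 each), so the ranges overlapped. Identical names such as miR-486a-5p and miR-486b-5p each enter the total, which lowers the family's share. The make-up of that share differed. miR-214-3p was 60.0 ± 13.2% of the family's counts in BDL and 16.5 ± 4.07% in sham, with ranges of 42.0 to 76.2% and 12.8 to 24.5% (SD, n = 6 each). miR-199a-3p was 30.1 ± 9.91% in BDL and 64.8 ± 4.91% in sham, with ranges of 17.4 to 39.9% and 55.1 to 68.6%. Neither range overlapped between the groups. The shares come from the counts already compared above and add up to a whole, so a rise of miR-214-3p lowers the rest. They are no further support for the results on miR-214-3p and miR-199a-3p.

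**Figure D2:**
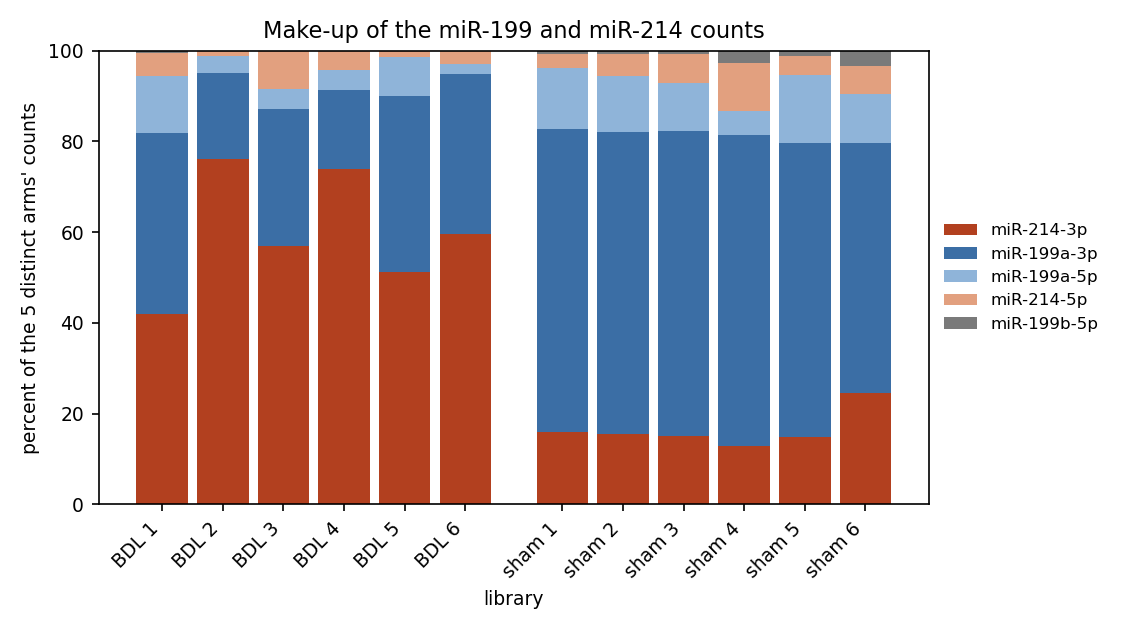
Share of each of the 5 distinct arms in the family's counts, as percent, 1 bar per library, BDL on the left. miR-214-3p fills 42.0 to 76.2% of the BDL bars and 12.8 to 24.5% of the sham bars, and miR-199a-3p fills 17.4 to 39.9% and 55.1 to 68.6%.

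Because both arms in a ratio come from the same library, a ratio of counts does not depend on how libraries are scaled. miR-214-3p reads per miR-199a-3p read numbered 1.05 in the lowest, 1.79 in the median and 4.25 in the highest BDL library. In sham they numbered 0.187, 0.232 and 0.444. Each BDL library held more miR-214-3p than miR-199a-3p reads, and each sham library held fewer. The highest ratio, in BDL 4, rests on 17 counts of miR-214-3p and 4 of miR-199a-3p. With TMM scaling every BDL library already stood above sham for miR-214-3p and below sham for miR-199a-3p. The groups therefore had to separate in this ratio, and its smallest p is no further support for those 2 results. The mean log2 ratio was 1.02 ± 0.80 in BDL and -1.99 ± 0.43 in sham, a difference of 3.01 (SD, n = 6 each; two-sided exact permutation p = 0.00216, the smallest that the 924 arrangements give; adjusted p = 0.00361 over 5 ratios). The difference was 2.57 within code ending 24 and 3.45 within code ending 26, where an exact permutation test of 3 libraries against 3 cannot go below p = 0.1. It was 2.46 without the 3 shallow BDL libraries (BDL 2, 4 and 6). With libraries that share a first code digit summed, which leaves 3 sums per group, it was 2.63 and not past the threshold (exact permutation p = 0.1, the smallest that 3 against 3 gives; adjusted p = 0.125).

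The ratio of miR-214-3p to miR-199a-5p also separated the groups. Its miR-214-3p counts are those of the ratio before, and they alone separated the groups with TMM scaling. These ratios are therefore not independent results. The ratio to miR-199a-5p was 3.37, 15.1 and 29.5 in the lowest, median and highest BDL libraries and 0.987, 1.35 and 2.42 in those of sham. The difference of mean log2 ratios was 2.81 (n = 6 each; exact permutation p = 0.00216, adjusted p = 0.00361).

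The arms of miR-214 came apart to a similar extent. This comparison again holds the miR-214-3p counts, so it is not independent of the ratios above. There were 0.0164, 0.0548 and 0.147 miR-214-5p reads per miR-214-3p read in the lowest, median and highest BDL libraries, against 0.201, 0.298 and 0.828 in sham. The mean log2 ratio was -4.03 ± 1.15 in BDL and -1.53 ± 0.71 in sham, a difference of -2.50 (SD, n = 6 each; exact permutation p = 0.00216, adjusted p = 0.00361). It was -1.88 within code ending 24 and -3.13 within code ending 26. Among 63 hairpin names with both arms tested, the gap between the arms' log2 fold changes had a median size of 1.1. miR-214, with a gap of 2.18, ranked 7, and miR-199a, with a gap of -0.35 (3p minus 5p), ranked 50.

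No such separation was seen between the arms of miR-199a. miR-199a-5p reads per miR-199a-3p read numbered 0.0571, 0.213 and 0.312 in the lowest, median and highest BDL libraries, and 0.0774, 0.19 and 0.232 in those of sham. The difference of mean log2 ratios was 0.20 (n = 6 each; exact permutation p = 0.615, adjusted p = 0.615). The ratio of miR-199b-5p to miR-199a-5p rested on few counts and had a difference of -0.69 (n = 6 each; exact permutation p = 0.409, adjusted p = 0.511); without the 3 shallow BDL libraries it was -1.86 (exact permutation p = 0.0238, adjusted p = 0.0298).

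**Figure D3:**
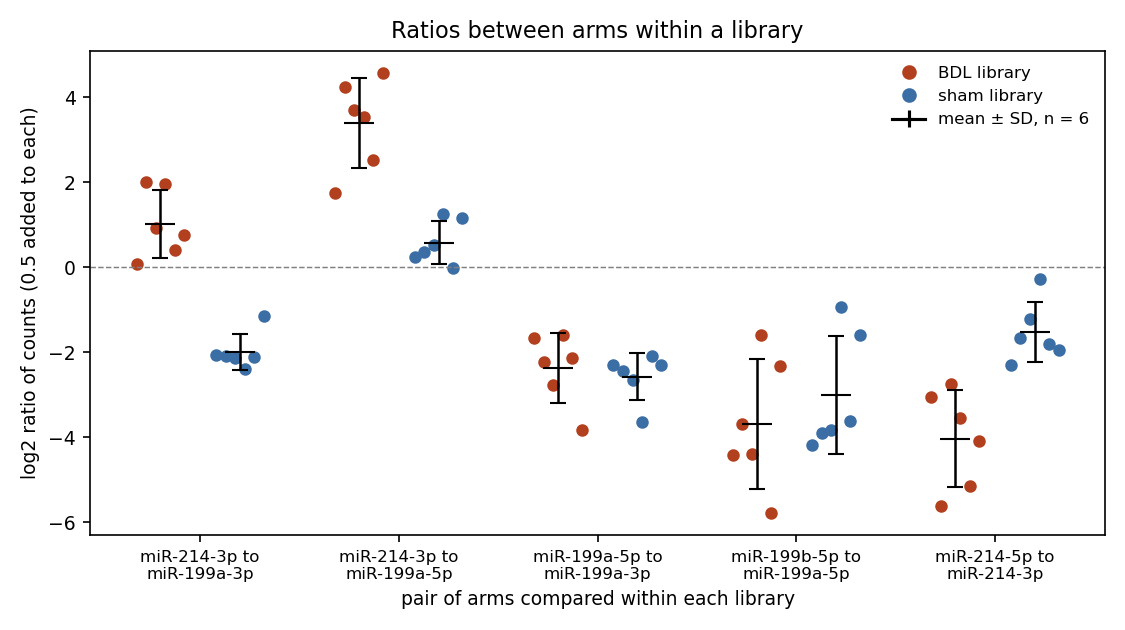
Log2 ratio of the counts of 2 arms in each library, BDL to the left of sham, with mean and SD. The groups do not overlap for miR-214-3p to miR-199a-3p (difference 3.01), miR-214-3p to miR-199a-5p (2.81) and miR-214-5p to miR-214-3p (-2.50), and they overlap for the ratios within miR-199.

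The names whose levels ran most like miR-199a-3p over the 12 libraries were miR-222-3p, miR-221-3p and miR-27b-3p. Likeness was the root mean square difference of log2 CPM after centring each name on its mean. It was 0.242, 0.337 and 0.361 for these, against a median of 1.05 over the 336 tested names that are not in the family. The difference between groups is part of this likeness, so the fold changes of the nearest names follow in part from how they were chosen. miR-222-3p, a regulator of cell cycle inhibitors, averaged 272 ± 122.5 CPM over BDL and 662.7 ± 112 CPM over sham libraries (SD, n = 6 each), and its log2 fold change was -1.26 (edgeR adjusted p = 0.0033). miR-199a-5p, at 0.607, was farther from miR-199a-3p than these, and miR-214-3p was at 1.62.

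The names nearest to miR-199a-5p were miR-126a-5p (0.32), an endothelial microRNA, miR-203-3p (0.523) and miR-221-3p (0.575), against a median of 1.21. miR-126a-5p fell by 1.26 on the log2 scale (edgeR adjusted p = 0.0153), while miR-203-3p had -0.19 (edgeR adjusted p = 0.713). The names nearest to miR-214-3p were miR-125a-3p (0.353), miR-423-3p (0.434) and miR-501-3p (0.449), against a median of 1.24. Their log2 fold changes were 1.42, 1.12 and 1.41 (edgeR adjusted p = 0.00205, 3.61e-04 and 3.77e-04), which follow in part from the choice by likeness. miR-214-5p was at 1.5 from its partner arm, farther than the median name. With only 2, 1, 4 and 3 counts of it in BDL 2, 4, 5 and 6, counting error can add to this distance, and its part was not tested.

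**Figure D4:**
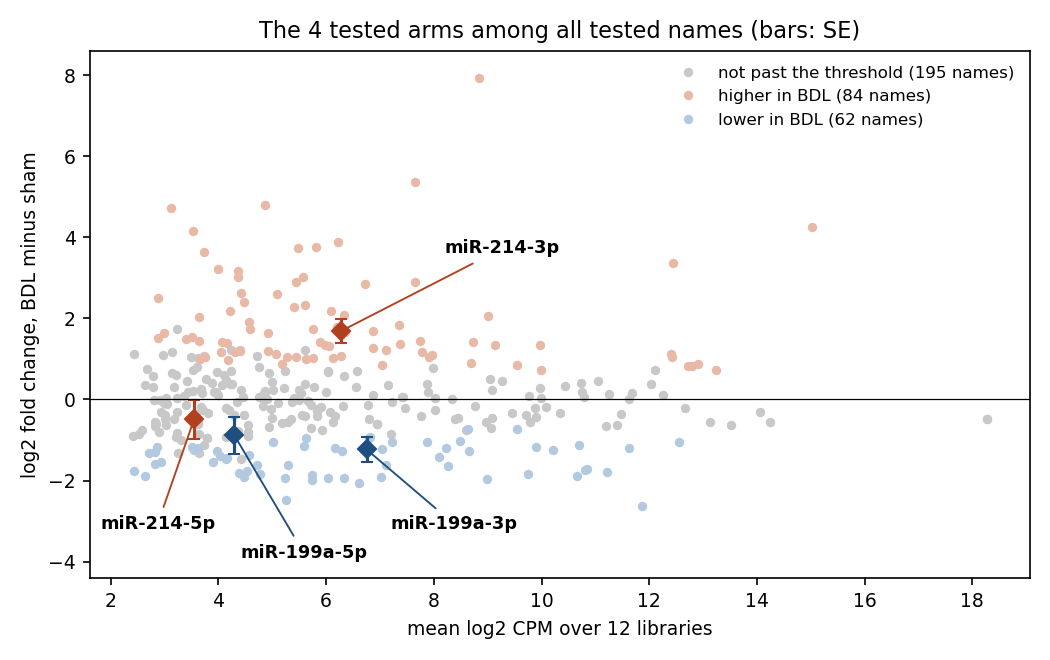
Log2 fold change (BDL minus sham) against mean log2 CPM for the 341 tested names, coloured by call, with the 4 tested arms of the family marked and their SE. miR-214-3p (1.69) lies among the names higher in BDL and miR-199a-3p (-1.23) among the lower ones, while miR-199a-5p (-0.89) and miR-214-5p (-0.49) are in the grey.

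Other microRNAs of stellate cells and fibrosis also held names called in both directions. Of 14 names known to rise in activated stellate cells or to favour fibrosis, 11 were tested, with 1 of them higher, 5 lower and 5 short of the threshold, where 24.6% of all tested names were higher and 18.2% lower. Their median log2 fold change was -0.73, where that of all tested names was 0.03. The higher name was miR-145a-5p, of smooth muscle and myofibroblasts, at 117 ± 69.8 CPM in BDL and 48.0 ± 16.7 CPM in sham (SD, n = 6 each; log2 fold change 1.31 ± 0.41, edgeR adjusted p = 0.0167). The neighbouring miR-143-3p, made from the same transcript, was lower, at 1151 ± 372.7 CPM in BDL and 2520 ± 426.2 CPM in sham (-1.13 ± 0.25, edgeR adjusted p = 0.00189). The other arm of that hairpin, miR-143-5p, is not on the list and was named after its values were seen; it was higher, at 13.4 ± 8.08 CPM in BDL and 4.19 ± 3.76 CPM in sham (1.51 ± 0.56, edgeR adjusted p = 0.0381). Its hairpin ranked 2 among the 63 by the gap between arms. miR-222-3p, miR-181b-5p, miR-27b-3p and miR-503-5p were the other lower names, with log2 fold changes of -1.26, -1.22, -0.73 and -1.47. The fibrosis-associated miR-21a-5p averaged 3363 ± 1350 CPM over BDL and 3365 ± 969 CPM over sham libraries (SD, n = 6 each).

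Of 16 names known to be lost on stellate cell activation or to restrain fibrosis, 14 were tested, with 2 of them higher, 4 lower and 8 short of the threshold, and a median log2 fold change of -0.13. The 6 called of 14 are close to the 42.8% called in either direction over all tested names. miR-132-3p (1.65 ± 0.36, edgeR adjusted p = 0.00179) and miR-378a-3p (0.83 ± 0.25, edgeR adjusted p = 0.013) were higher. miR-16-5p (-2.06 ± 0.46), miR-150-5p (-1.96 ± 0.42), miR-15b-5p (-1.31 ± 0.48) and miR-101a-3p (-0.95 ± 0.29) were lower; miR-16-5p is also abundant in red cells and miR-150-5p in lymphocytes. miR-30a-5p, the most abundant name of the list that did not pass, had 0.47 ± 0.40 (edgeR adjusted p = 0.387). Both lists were written with earlier results of these data known.

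**Figure D5:**
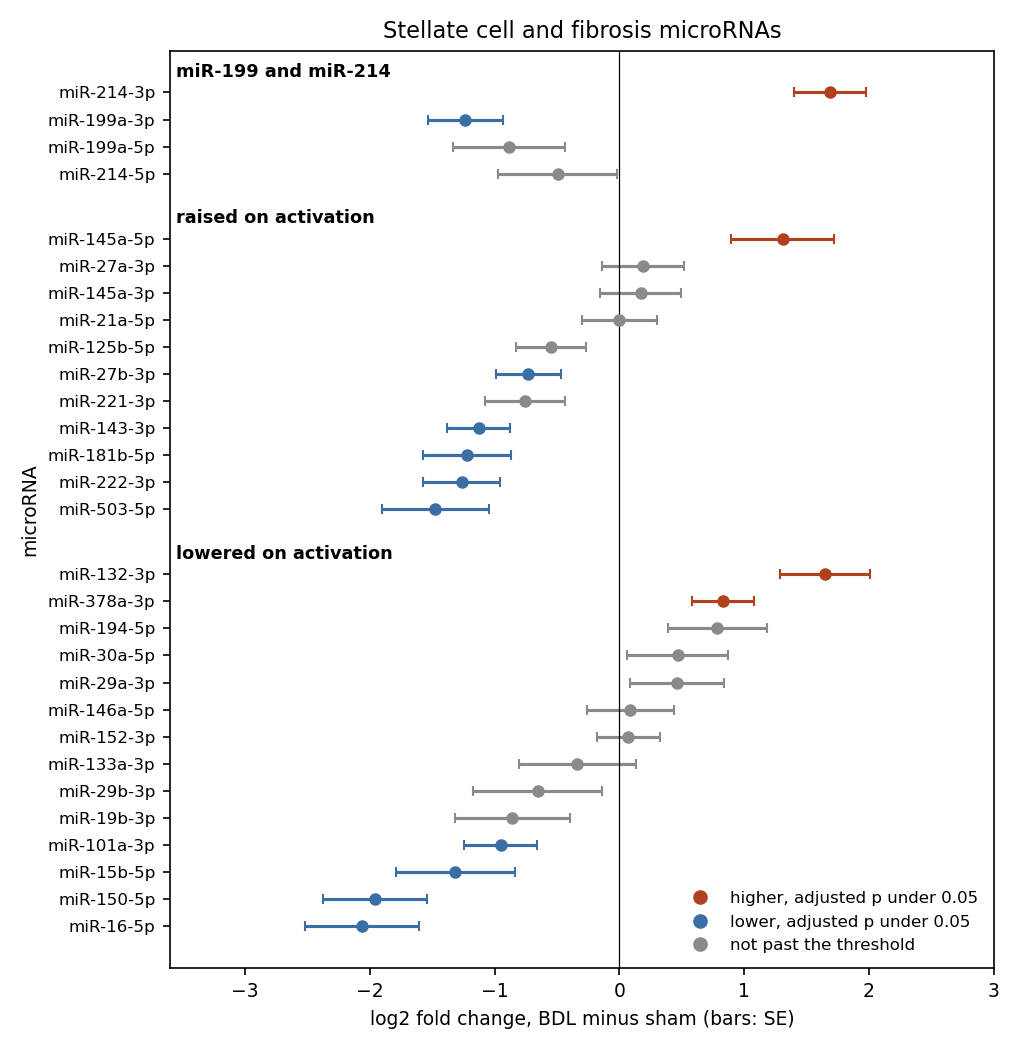
Log2 fold change (BDL minus sham) with SE for the 4 tested arms and for the tested names of lists known to be raised or lowered on stellate cell activation. Each list holds points on both sides of 0, from -1.47 to 1.31 in the first and from -2.06 to 1.65 in the second.

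Markers of other cell types were counted in the same libraries, against 24.6% higher and 18.2% lower over all tested names. Of 5 tested platelet names, 1 was higher (miR-24-3p, 1.06) and 1 lower (miR-126a-3p, -1.79), and the list took 0.595 to 2.62% of BDL counts and 0.797 to 1.49% of sham counts. Both endothelial names, miR-126a-3p and miR-126a-5p, and 3 of 5 leukocyte names were lower; the lists took 0.0619 to 0.359% and 0.0502 to 0.303% of BDL counts, and 0.292 to 0.884% and 0.279 to 0.661% of sham counts. Of 3 tested hepatocyte names 2 were higher, and that list took 7.17 to 33.9% of BDL and 0.432 to 2.51% of sham counts. The erythroid list, with 2 of 4 tested names lower, took a median of 28.2% and at most 36.0% of BDL counts, and a median of 38.6% and at least 37.0% of sham counts. It holds miR-486a-5p, which averaged 279074 CPM in BDL and 392699 CPM in sham. miR-486b-5p had the same level in every library and is not on the list. Both names enter the total, so every share given here is lower than with identical names kept once, by an amount that differed between libraries. Of 4 striated muscle names 3 were lower, and of 4 other mesenchymal names 1 was higher and 1 lower; the lists took 0.0661 to 0.167% and 0.18 to 0.76% of BDL counts, and 0.114 to 0.225% and 0.375 to 0.887% of sham counts. No marker of these lists was at 0 in every library. The part of these cells in the changes of miR-199a-3p and miR-214-3p was not tested.

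Fold changes also went with base composition. Of the tested names, 290 had a mature sequence in the table, and they were parted into 3 by GC content. In the part of 57.1% GC or more, which holds miR-214-3p at 59.1%, 36 of 96 names were higher and 2 lower, with a median log2 fold change of 0.48. In the part of 45.5% or less, which holds miR-199a-3p at 40.9%, 9 of 100 were higher and 36 lower, with a median of -0.62. In the part between, which holds miR-214-5p at 54.5% and miR-199a-5p at 52.2%, 23 of 94 were higher and 13 lower, with a median of 0.18. The part of GC content in the opposite moves of the arms was not tested.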

How the data were processed

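Small RNA libraries were made by the submitters from plasma vesicle RNA by PCR with no molecular identifiers described, per the labels' protocols, so intervals and limits cover counting error only. The submitters' processing notes name cutadapt and STAR; the genome build and microRNA annotation were not given in the sources used here. Whole-number counts per microRNA name, not normalized, were deposited by the authors in 1 column per library. Names of other species (67, at most 0.00786% of a library) were left out.

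The 1915 mouse names were tested as BDL against sham with edgeR 4.0.16 in R 4.3.3: TMM scaling, filterByExpr with the groups (341 names kept), the quasi-likelihood F test and Benjamini-Hochberg adjustment, with 0.05 as threshold. The SE was taken as the size of the log2 fold change over the root of F. Log2 CPM values have a prior count of 2. Ratios between arms used counts plus 0.5 and two-sided exact permutation tests (SciPy 1.17.1), adjusted over 5 ratios. No 2 libraries of a group agreed within sampling noise (lowest chi-square per degree of freedom 38.3). Same-numbered libraries of the groups were checked for pairing.

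The members, lists and tests were chosen with earlier results of these data known. Text names were all members, list names past the threshold with up to 3 others by level, and the 3 nearest names to each of 3 arms; individual cell type markers were named after their values were seen. Hairpin positions are from GENCODE M21 and RefSeq on GRCm38. Alternatives were other scalings and filters, DESeq2 1.42.0, limma-voom (limma 3.58.1), the sample number as a block, the code ending, sums per first code digit, identical names kept once, 1 added count and leaving out libraries. Leaving out BDL 2, 4 and 6 together was chosen after seeing the data.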

Additional observations from a re-analysis of the deposited data

Results flagged for a closer look

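In sham 6 the log2 ratio of miR-214-3p to miR-199a-3p was -1.16, while the other 5 sham libraries lay between -2.40 and -2.06, a gap that set this library apart in its group. It remained below the lowest BDL library, at 0.073.

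In sham 4 the log2 ratio of miR-199a-5p to miR-199a-3p was -3.64, while the other 5 sham libraries lay between -2.65 and -2.10. It rests on 12 counts of miR-199a-5p and 155 of miR-199a-3p. These were 2 of 18 groups of 6 values examined, where chance flags about 1 in 20.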

How the results depend on the processing

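The fall of miR-199a-3p and the rise of miR-214-3p kept their direction and stayed past the threshold in all 25 alternatives run, with log2 fold changes from -1.58 to -0.89 and from 1.43 to 1.83. miR-199a-5p passed it in 3 of 24: with the replicate block of sample numbers (-1.23, edgeR adjusted p = 0.0287), with the code ending as a term (-1.08) and without BDL 1; leaving out 1 library at a time gave -1.52 to -0.68. miR-214-5p had a log2 fold change of 0.046 in code ending 24. Leaving out 1 library gave -0.011 to 0.49 for the log2 ratio of miR-199a-5p to miR-199a-3p, the lowest without sham 4. Without the 3 shallow BDL libraries the ratio of miR-199b-5p to miR-199a-5p was -1.86. The causes were not tested.

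The sample numbers were not shown to pair the libraries: same-numbered libraries had correlations of deviations from -0.0886 to 0.311, and 2 of 6 correlated best with their own number. With the replicate block, 72 names were higher and 61 lower. The differences in ratio of miR-214-3p to miR-199a-3p, of miR-214-3p to miR-199a-5p and of miR-214-5p to miR-214-3p were then 3.01, 2.81 and -2.50, each with an exact sign-flip p of 0.0312, the smallest possible for 6 pairs (adjusted p = 0.0521). These 3 differences also missed the threshold where 3 values per group were left, with an exact permutation p of 0.1, the smallest possible: 2.57, 2.41 and -1.88 in code ending 24 (adjusted p = 0.125), 3.45, 3.20 and -3.13 in code ending 26 (adjusted p = 0.167), and 2.63, 2.44 and -2.07 with libraries that share a first code digit summed (adjusted p = 0.125). In these designs the p says nothing about stability.

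In code ending 26 alone, 54 names were higher, of 265 tested; miR-199a-5p and miR-214-5p did not pass the low-count filter there. The median log2 fold change of all names was 0.03 with TMM, -0.11 with DESeq2 size factors and 0.12 with total counts. BDL 4 held 1 to 17 counts of each detected arm, which limits every ratio taken in it.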
